A study of Mus musculus with 8 samples.

Results

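The cytochrome P450 genes are the 85 genes, of 19936 measured, whose platform symbol is Cyp followed by a number, letters and a number and that are named alone by a probe set; Cyp27b1 and Cyp24a1 were left out. They fall into 35 subfamilies (the letters after the first number name the subfamily), 7 of them with 3 or more genes. RefSeq lists 82 as protein coding and 3, Cyp2d13, Cyp2d37-ps and Cyp4f41-ps, as transcribed pseudogenes. Whole-kidney RNA of 8 female mice of a mixed C57BL/6 and SV127 background was measured on Affymetrix arrays. By the labels, the 4 arrays named mutant hold RNA of mice with Pax8-rtTA, LC-1 and floxed Vhl. In such mice doxycycline switches on Cre in the tubule epithelium of the kidney. By the same labels, the 4 arrays named control hold RNA of littermates whose alleles are given only as control. All mice drank doxycycline (0.2 mg/ml in 5% sucrose) for 2 weeks from 3 weeks of age, and plain water for 1 more week, up to their death at 6 weeks of age.

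P450 enzymes are haem proteins that insert oxygen into lipids, steroids, vitamins and foreign compounds. Most sit in the endoplasmic reticulum and receive electrons from P450 reductase, and a few lie in mitochondria and are served by ferredoxin. In the kidney, proximal tubule cells carry many of them. Enzymes of the Cyp2c and Cyp2j subfamilies turn arachidonic acid into epoxyeicosatrienoic acids, and some Cyp4a enzymes turn it into 20-hydroxyeicosatetraenoic acid. These lipids act on salt transport and vessel tone.

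The labels need care. The Vhl probe set was 1.22-fold higher in labelled mutant arrays (8.34 ± 0.0909 against 8.05 ± 0.118, SD of 4 arrays per group; limma adjusted p = 0.0387, and 0.0558 with the replicate number as a block), and all 6 checked genes that hypoxia-inducible factor activates were lower there (median log2 difference -1.51). Egln3, the prolyl hydroxylase gene among them, was 7.81-fold lower in labelled mutant arrays, and Car9, a carbonic anhydrase gene, 7.35-fold lower. Which part of Vhl the probe set reads is not given in the sources used here. Every difference below is therefore that of labelled mutant minus labelled control arrays. It gives no direction of Vhl loss, and whether the group labels were exchanged was not tested. The values are log2 intensities as deposited, with array medians of 7.55 to 7.58, and the number of arrays limits their precision.

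Of the 85 P450 genes, 7 passed the test (limma adjusted p under 0.05 over all 19936 genes), or 8.24%, where 7.23% of all genes did. In labelled mutant arrays 3 were higher (3.53%, against 2.59% of all genes): Cyp2d12, Cyp4f14 and Cyp2u1. There were 4 lower (4.71%, against 4.64% of all genes): Cyp2j13, Cyp2s1, Cyp20a1 and Cyp4f18. These shares lie near the background. The median log2 difference of the 85 was 0.03, the value for all genes, and the median size of a difference was 0.11 against 0.09. Only Cyp2j13 and Cyp2d12 differed at least 2-fold (2.35%, against 0.396% of all genes). The groups did not overlap in 12 members (14.1%, against 14.8% of all genes): 7 lay wholly above (8.24%, against 6.57%) and 5 wholly below (5.88%, against 8.20%). Differences were above 0 in 48 of the 85 (56.5%, against 58.1% of all genes). At an unadjusted limma p under 0.05 there were 16 members (18.8%, against 21.8% of all genes).

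Promoter windows from RefSeq (GRCm38.p6) run from 250 bases before to 50 after an annotated start. They are shown for a pair of genes from each of the Cyp2j and Cyp4f subfamilies. The pairs were chosen because their members differ in the test result. Cyp2j13 fell, and Cyp2j11, which lies 2 places from it in RefSeq's order, did not pass the test. Here and below, places in RefSeq's order are counted over measured genes only, so unmeasured genes may lie between. Cyp4f14 rose and Cyp4f18, which lies on another chromosome, fell. Capitals mark ACGTG or GCGTG on either strand, the core letters to which hypoxia-inducible factor can bind, of which GCGTG is also the core for the aryl hydrocarbon receptor. For genes with several windows the first listed is shown.
Cyp2j13 (chr4:96077491-96077790, minus strand): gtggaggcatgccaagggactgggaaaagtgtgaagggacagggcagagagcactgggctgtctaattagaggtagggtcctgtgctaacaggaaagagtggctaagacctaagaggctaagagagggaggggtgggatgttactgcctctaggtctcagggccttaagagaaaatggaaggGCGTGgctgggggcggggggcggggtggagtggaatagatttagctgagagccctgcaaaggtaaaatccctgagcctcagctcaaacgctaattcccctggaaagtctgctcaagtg
Cyp2j11 (chr4:96348631-96348930, minus strand): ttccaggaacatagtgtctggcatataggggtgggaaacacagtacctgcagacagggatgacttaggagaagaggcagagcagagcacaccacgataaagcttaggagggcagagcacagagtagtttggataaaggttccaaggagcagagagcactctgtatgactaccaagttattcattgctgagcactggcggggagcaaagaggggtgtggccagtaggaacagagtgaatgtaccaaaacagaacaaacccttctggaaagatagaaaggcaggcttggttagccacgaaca
Cyp4f14 (chr17:32917307-32917606, minus strand): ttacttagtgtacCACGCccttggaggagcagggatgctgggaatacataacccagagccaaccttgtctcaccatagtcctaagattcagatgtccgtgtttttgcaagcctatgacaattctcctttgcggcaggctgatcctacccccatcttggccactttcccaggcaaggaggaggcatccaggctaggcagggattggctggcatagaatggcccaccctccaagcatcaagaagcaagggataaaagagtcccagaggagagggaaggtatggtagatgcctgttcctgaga
Cyp4f18 (chr8:72009577-72009876, minus strand): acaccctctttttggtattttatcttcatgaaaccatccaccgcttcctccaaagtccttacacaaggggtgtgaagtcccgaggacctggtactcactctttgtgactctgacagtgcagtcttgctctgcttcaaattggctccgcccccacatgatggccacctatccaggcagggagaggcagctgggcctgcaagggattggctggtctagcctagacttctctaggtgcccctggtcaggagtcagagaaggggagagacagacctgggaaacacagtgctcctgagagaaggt
The Cyp2j13 window holds 1 GCGTG, at position -68 from the annotated start, and the Cyp4f14 window holds 1, on the other strand, at position -237. The windows of Cyp2j11 and Cyp4f18 hold 0 of either motif. Among the other genes that passed, Cyp20a1, which was lower, has 2 GCGTG in its window and Cyp2s1, also lower, 0 of either motif. Cyp2d12 and Cyp2u1, which were higher, were not matched to a window. Across the 62 P450 genes matched to a window, 19 (30.6%) hold ACGTG or GCGTG, against 43.8% of 27025 genes. AGGTCA, the core to which many nuclear receptors bind, was found in 15 of the 62 (24.2%), against 16.0% of all. These matches describe letters in a window and not binding.

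Cyp2j13, a member of the epoxygenase subfamily Cyp2j, had the largest difference of any P450 gene. Its 4 labelled mutant arrays read 7.34, 7.36, 8.04 and 7.39, and its 4 labelled control arrays 10.52, 9.64, 10.01 and 9.89. The groups lie far apart, and mutant array 3 reads above the other mutant arrays. The gene was 5.59-fold lower in labelled mutant arrays (7.53 ± 0.342 against 10.01 ± 0.370, SD of 4 arrays per group; log2 difference -2.48, SE 0.201, limma adjusted p = 0.000130). By size this was number 7 of all 19936 differences. The call held in all 17 alternatives run on it, with log2 differences from -2.67 to -2.30.

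The other 5 Cyp2j genes did not pass. All 6 lie on chromosome 4. Cyp2j5, the kidney epoxygenase best studied in the mouse, read 12.84 ± 0.0367 in labelled mutant arrays and 12.78 ± 0.0685 in labelled control arrays (SD of 4 arrays per group; limma adjusted p = 0.577). Cyp2j11 read 12.13 ± 0.0762 against 12.30 ± 0.129 and Cyp2j9 8.72 ± 0.140 against 8.87 ± 0.208 (SD of 4 arrays per group; limma adjusted p = 0.230 and 0.454). Cyp2j6 alone among these 5 had groups that did not overlap. Its mutant arrays at 9.43 to 9.56 lay above its control arrays at 9.16 to 9.40, a log2 difference of 0.21 (limma adjusted p = 0.0883, though 0.0348 after quantile normalization). Cyp2j12, next to Cyp2j13 in RefSeq's order of measured genes, differed by -0.12 (SE 0.0726). On the other side of Cyp2j13, Hook1, which is no P450 gene, differed by -0.08. The subfamily's median difference was -0.13. Its mean level over the 6 genes, Cyp2j13 included, differed by -0.44.

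**Figure D1:**
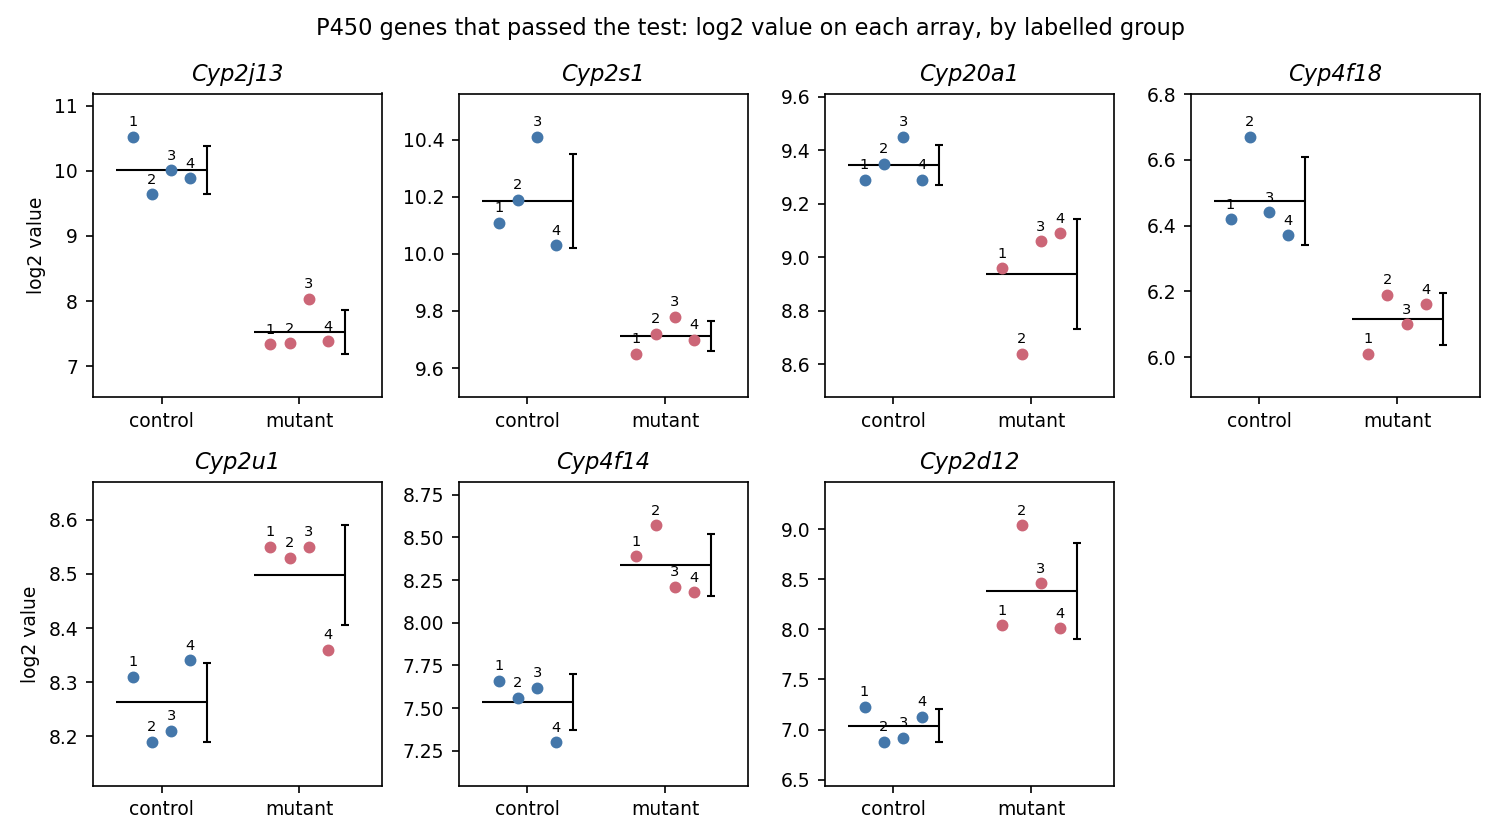
Deposited log2 value (vertical axis, a separate scale in each panel that does not start at 0) of the 7 P450 genes that passed the test, for the 4 arrays labelled control (blue) and the 4 labelled mutant (red). Small numbers are replicate numbers, horizontal lines the group means and bars 1 SD; in each of the 7 genes the groups do not overlap, and Cyp2j13 shows the widest gap (means 10.01 and 7.53).

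Cyp2d12 showed the largest rise. Its labelled mutant arrays read 8.04, 9.04, 8.46 and 8.01 and its labelled control arrays 7.23, 6.88, 6.92 and 7.13. Every mutant array lies above every control array, with mutant array 2 highest. The gene was 2.55-fold higher (8.39 ± 0.481 against 7.04 ± 0.167, SD of 4 arrays per group; log2 difference 1.35, SE 0.203, limma adjusted p = 0.00376), and it kept its call in all 17 alternatives run on it. Cyp2d enzymes act on drugs and, in the mouse, form a large cluster, whose 10 measured members all lie on chromosome 15.

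The 9 other Cyp2d genes did not pass. Their differences were above 0 in 3 and below 0 in 6, and the median over all 10 was -0.07. Cyp2d9, which precedes Cyp2d12 in RefSeq's order, read 7.63 ± 0.300 against 7.35 ± 0.202 (SD of 4 arrays per group; limma adjusted p = 0.302), and Cyp2d34, which follows it, 6.56 ± 0.115 against 6.52 ± 0.0554 (0.750). Cyp2d22, often treated as the mouse counterpart of human CYP2D6, had mutant arrays at 10.83, 11.25, 11.22 and 11.29 and control arrays at 11.37, 11.62, 11.47 and 11.50. These do not overlap, with a log2 difference of -0.34 (SE 0.101). It did not pass without a block (limma adjusted p = 0.0766) and did with the replicate number as a block (0.0284). Cyp2d26, read at 12.84 to 13.29 on the 8 arrays, differed by -0.18 (limma adjusted p = 0.234, though 0.0426 without mutant arrays 3 and 4). Members of this cluster are close in sequence, so a probe set may read RNA of more than its named gene.

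**Figure D2:**
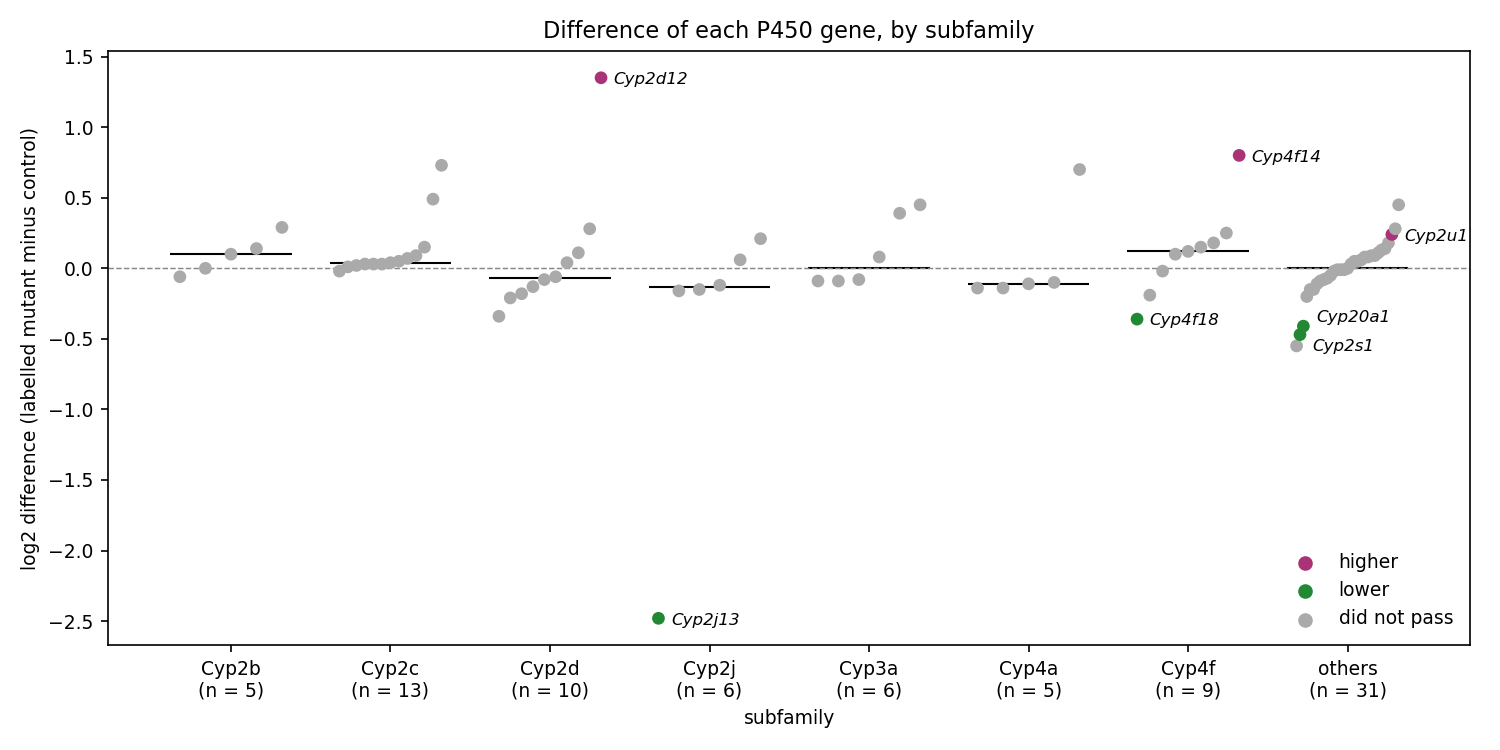
Log2 difference, labelled mutant minus labelled control (vertical axis), of each of the 85 P450 genes (points), grouped by subfamily on the horizontal axis; the 31 genes of the 28 subfamilies with 1 or 2 genes stand together as others. Black lines are medians, and purple and green mark genes that passed the test as higher or lower; Cyp2d12 (1.35) and Cyp2j13 (-2.48) stand apart from members of their own subfamilies, whose medians are -0.07 and -0.13.

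Among the Cyp4f genes, which act at the far end of fatty acid chains, members changed in both directions. Cyp4f14, an enzyme that acts on leukotriene B4 and vitamin E, read 8.39, 8.57, 8.21 and 8.18 in labelled mutant arrays and 7.66, 7.56, 7.62 and 7.30 in labelled control arrays. All mutant arrays lie above all control arrays, a 1.74-fold rise (8.34 ± 0.180 against 7.54 ± 0.163, SD of 4 arrays per group; log2 difference 0.80, SE 0.104, limma adjusted p = 0.00191) that held in all 17 alternatives run on it. Cyp4f18, known from leukocytes, where it also acts on leukotriene B4, read 6.01, 6.19, 6.10 and 6.16 against 6.42, 6.67, 6.44 and 6.37. It fell 1.28-fold (6.12 ± 0.0779 against 6.47 ± 0.131, SD of 4 arrays per group; log2 difference -0.36, SE 0.0734, limma adjusted p = 0.0165). That call was lost when mutant arrays 1 and 2 (limma adjusted p = 0.0761) or mutant arrays 3 and 4 (0.0538) were left out. Beside it, 0 of 6 macrophage markers passed in either direction without a block. With the replicate number as a block Cd68, a lysosomal protein of macrophages, passed as lower (log2 difference -0.24, limma adjusted p = 0.143, and 0.0334 with the block). The mean of the 6 was 8.18 to 8.85 in labelled mutant arrays and 8.42 to 8.67 in labelled control arrays. Neutrophil genes were not analysed here, and the part of leukocytes in this value was not tested.

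The other 7 Cyp4f genes did not pass. Cyp4f18 is the member on chromosome 8, and the other 8 lie on chromosome 17. Next to Cyp4f14 in RefSeq's order, Cyp4f13 (10.23 ± 0.0850 against 10.05 ± 0.10) and the pseudogene Cyp4f41-ps (7.37 ± 0.0571 against 7.21 ± 0.0503; SD of 4 arrays per group) both had every mutant array above every control array. Their limma adjusted p were 0.158 and 0.118. Cyp4f37 differed by 0.25 (limma adjusted p = 0.0991, though 0.0299 without mutant arrays 3 and 4) and Cyp4f16 by -0.19 (0.199). The subfamily's median was 0.12. Leaving out mutant arrays 1 and 2 made it 0.04, and leaving out mutant arrays 3 and 4 made it 0.19.

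No Cyp4a gene passed. These enzymes also act at the far end of fatty acid chains, and the subfamily includes targets of the lipid sensor PPAR alpha. Cyp4a10 read 13.13 ± 0.111 in labelled mutant arrays and 13.24 ± 0.0949 in labelled control arrays, Cyp4a31 13.02 ± 0.0757 against 13.15 ± 0.115 and Cyp4a14 13.03 ± 0.244 against 13.13 ± 0.249 (SD of 4 arrays per group; limma adjusted p = 0.398, 0.287 and 0.721). Cyp4a12a, the main enzyme of this reaction in mice, read 9.0 to 10.13 in labelled mutant arrays against 8.76, 8.40, 8.68 and 9.83 in labelled control arrays. Mutant arrays 3 and 4 and control array 4 are the high ones, and the groups overlap (log2 difference 0.70, SE 0.324, limma adjusted p = 0.243). Without control array 4 the difference was 1.0 and passed (0.0489). Its near copy Cyp4a12b was highest on control array 4, at 10.76, with the other 7 arrays at 8.75 to 9.90 (log2 difference -0.14, SE 0.366). Cyp4b1, of the related subfamily Cyp4b, read 12.40 ± 0.295 against 12.26 ± 0.287 (SD of 4 arrays per group; limma adjusted p = 0.665). Ppara, which encodes PPAR alpha, differed by 0.02.

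**Figure D3:**
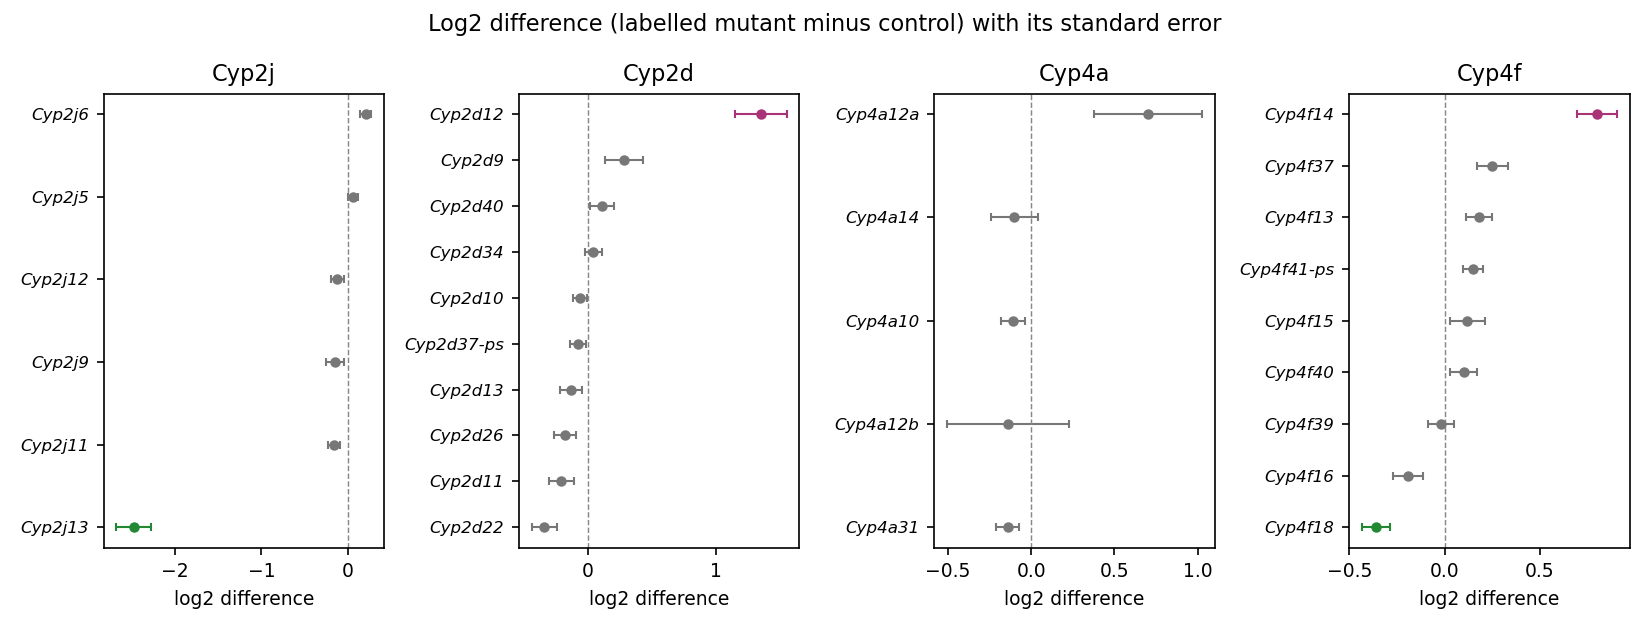
Log2 difference, labelled mutant minus labelled control (horizontal axis, a separate scale in each panel), with its standard error (bars) for each gene of the Cyp2j, Cyp2d, Cyp4a and Cyp4f subfamilies. Purple and green mark genes that passed the test as higher or lower and grey those that did not; 1 of 6 Cyp2j, 1 of 10 Cyp2d, 0 of 5 Cyp4a and 2 of 9 Cyp4f genes passed.

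Of the Cyp2c genes, 0 of 13 passed, and 12 of the 13 differences were above 0 (median 0.04), against 58.1% over all genes. Without mutant array 3 that number was 6 of 13 (median 0.00, against 57.8% over all genes), and without mutant arrays 3 and 4 it was 5 (median -0.06). Cyp2c23, an epoxygenase of the kidney, read 9.80, 9.68, 11.85 and 11.57 in labelled mutant arrays and 10.91, 9.77, 9.78 and 9.52 in labelled control arrays. Mutant arrays 3 and 4 and control array 1 are high and the other 5 arrays lie between 9.52 and 9.80, so the split crosses the labelled groups. With a within-group SD of 0.923 it had the largest spread of the 85 (median 0.134, against 0.104 for all genes), and its log2 difference of 0.73 (SE 0.510, limma adjusted p = 0.438) became 1.72 without mutant arrays 1 and 2 (0.0294) and -0.26 when mutant arrays 3 and 4 were left out. Cyp2c67 differed by 0.49 (limma adjusted p = 0.237). It passed without control array 3 (0.0159), on which it read 4.98 against 3.77 to 4.32 on the other control arrays. Differences are compressed near the low end of an array's range, and 9 of the 13 genes had means in both groups under each array's lower quartile (6.21 to 6.28). Mutant array 3 was the highest array for 6 of the 13. Of the 6 liver genes, 3 were highest on mutant array 3 (Ahsg at 8.53, Alb at 11.42 and Apoa1 at 8.33) and 3 on mutant array 4 (Apoh, Fga and Fgb). The mean of the 6 liver genes ran from 7.02 to 8.34 in labelled mutant arrays and from 7.67 to 8.04 in labelled control arrays. Of 12 proximal tubule markers, 6 were also highest on mutant array 3. The others were highest on mutant array 2 (1), mutant array 4 (2), control array 1 (2) and control array 2 (1). The part of either list in the Cyp2c values was not tested.

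Of the 31 genes grouped under xenobiotic and hormone metabolism, the Cyp2d genes included, 1 passed as higher (Cyp2d12) and 1 as lower (Cyp2s1). Over all genes 2.59% passed as higher and 4.64% as lower. Cyp2s1, an enzyme of epithelia outside the liver that the aryl hydrocarbon receptor can induce, read 9.65, 9.72, 9.78 and 9.70 in labelled mutant arrays and 10.11, 10.19, 10.41 and 10.03 in labelled control arrays. The groups lie apart, with control array 3 highest, and the gene was 1.39-fold lower (9.71 ± 0.0542 against 10.18 ± 0.164, SD of 4 arrays per group; log2 difference -0.47, SE 0.0802, limma adjusted p = 0.00660). The call was lost without mutant arrays 1 and 2 (0.0546). Ahr, which encodes that receptor, was 1.20-fold lower (8.81 ± 0.0671 against 9.07 ± 0.109, SD of 4 arrays per group; limma adjusted p = 0.0384, and 0.0726 with the replicate block). Other genes the receptor is known to induce did not pass: Cyp1a1 read 6.51 ± 0.170 against 6.72 ± 0.0557 and Cyp1b1 9.34 ± 0.119 against 9.49 ± 0.130 (SD of 4 arrays per group; limma adjusted p = 0.190 and 0.327). Without mutant arrays 3 and 4 Cyp1a1 did pass (0.0410). Cyp1a2, the other Cyp1a gene, differed by -0.01 and Ahrr, counted among the regulators of P450 genes, by 0.20. Neither passed (limma adjusted p = 0.960 and 0.225). The part of the receptor in these values was not tested. Cyp2e1, the ethanol-oxidizing enzyme, read 12.05 ± 0.235 against 12.20 ± 0.0941 (SD of 4 arrays per group; limma adjusted p = 0.453). Of the 5 Cyp2b genes 0 passed (median 0.10), and of the 6 Cyp3a genes 0 passed (median 0.00). The means of 5 of the 6 Cyp3a genes lay under each array's lower quartile in both groups.

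Cyp20a1 and Cyp2u1 were called with less margin. Cyp20a1, whose substrate is little known, read 8.96, 8.64, 9.06 and 9.09 in labelled mutant arrays against 9.29, 9.35, 9.45 and 9.29 in labelled control arrays, all mutant arrays lower. It was 1.33-fold lower (8.94 ± 0.208 against 9.35 ± 0.0756, SD of 4 arrays per group; log2 difference -0.41, SE 0.0964, limma adjusted p = 0.0307). It lost its call without mutant array 1 (0.0544), control array 1 (0.0615), control array 2 (0.0790), control array 3 (0.0945), or mutant arrays 1 and 2 together (0.0657). Cyp2u1, a hydroxylase of long-chain fatty acids, read 8.55, 8.53, 8.55 and 8.36 against 8.31, 8.19, 8.21 and 8.34. Mutant array 4 and control array 4 almost touch. The rise was 1.18-fold (8.50 ± 0.0917 against 8.26 ± 0.0699, SD of 4 arrays per group; log2 difference 0.24, SE 0.0625, limma adjusted p = 0.0489). Blocking on the replicate number ended that call (0.0830), as did array weights (0.0540), leaving out mutant array 1 (0.103), 2 (0.128) or 3 (0.103), leaving out control array 1 (0.0852), 2 (0.135), 3 (0.133) or 4 (0.0515), and leaving out mutant arrays 1 and 2 together (0.242). Of the 28 genes lying within 2 places of a called P450 gene in RefSeq's order of measured genes, 2 passed, where 7.23% of all genes did. Sgms2, a sphingomyelin synthase gene next to Cyp2u1, was 1.30-fold higher, and Raph1, near Cyp20a1, 1.16-fold lower.

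P450 genes of steroid (5 genes), sterol (6), retinoid (3) and vitamin D (1, Cyp2r1) metabolism gave 0 calls in the main test. Over all genes 7.23% passed, and with so few members 0 calls says little. Cyp27b1 and Cyp24a1 were left out of the members, so nothing is said of them here. Cyp27a1, a mitochondrial sterol hydroxylase of bile acid synthesis, read 9.79, 10.28, 10.27 and 10.55 in labelled mutant arrays and 9.58, 9.94, 9.78 and 9.77 in labelled control arrays. Mutant array 1 lies inside the control range and the other mutant arrays above it (log2 difference 0.45, SE 0.142, limma adjusted p = 0.0918). It passed with the replicate number as a block (0.0324), with array weights (0.0435) and when mutant array 1 (0.00868) or mutant arrays 1 and 2 (0.0196) were left out. Cyp2r1, which carries out the first hydroxylation of vitamin D, read 5.38, 5.13, 5.46 and 7.02 against 6.86, 6.26, 6.68 and 5.37, so that array 4 of each group reads like the other group (log2 difference -0.55, SE 0.425, limma adjusted p = 0.488). Cyp26b1, which breaks down retinoic acid, read 7.59 to 8.34 against 7.66 to 8.90. All 5 genes of steroid hormone synthesis lay at 5.14 to 7.07 on every array. Of the adrenal cortex markers, used to see whether adrenal tissue was carried along, 0 of 5 passed (the largest difference was 0.16, for Hsd3b1), with list means of 6.30 to 6.34 in labelled mutant arrays and 6.20 to 6.33 in labelled control arrays. Among sterol genes, Cyp39a1 differed by 0.05 and Cyp7b1 by -0.11.

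**Figure D4:**
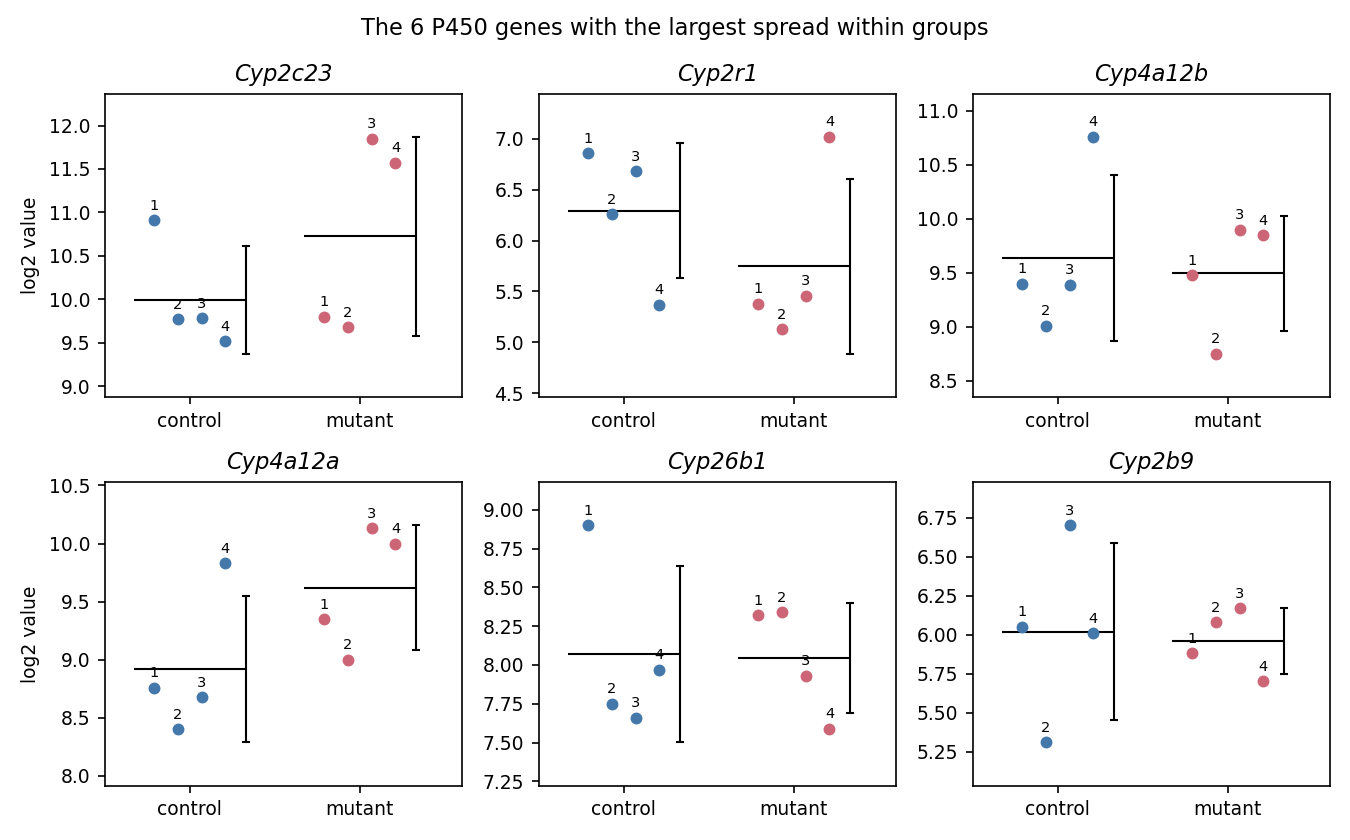
Deposited log2 value (vertical axis, a separate scale in each panel that does not start at 0) of the 6 P450 genes with the largest spread within groups, for arrays labelled control (blue) and mutant (red). Small numbers are replicate numbers, lines are means and bars 1 SD; Cyp2c23 is high on mutant arrays 3 and 4 and control array 1, and Cyp2r1 on mutant array 4 and control arrays 1 to 3.

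Among genes that work with the P450 enzymes, single members passed. Fdx1, the ferredoxin that feeds electrons to mitochondrial P450 enzymes, fell 1.27-fold (8.23 ± 0.115 against 8.57 ± 0.0672, SD of 4 arrays per group; limma adjusted p = 0.0136), the 1 call among 6 measured electron donors and haem partners. Cyb5b and Alas1, which encode a cytochrome b5 and the first enzyme of haem synthesis, differed by 0.28 and 0.33 and did not pass (limma adjusted p = 0.0882 and 0.0906), though both did with the replicate number as a block (0.0229 and 0.0386). Of 13 measured receptors and regulators 1 rose and 1, Ahr, fell. The riser, Nr0b2, a nuclear receptor that represses bile acid synthesis genes, was 1.22-fold higher (7.63 ± 0.108 against 7.34 ± 0.0843, SD of 4 arrays per group; limma adjusted p = 0.0314, and 0.0684 with the replicate block). Ephx1, the microsomal epoxide hydrolase, was 1.46-fold lower (10.29 ± 0.121 against 10.84 ± 0.299, SD of 4 arrays per group; limma adjusted p = 0.0367, and 0.0653 with the replicate block), and it was the 1 call among 4 epoxide hydrolases. Ephx2, the soluble enzyme that clears epoxyeicosatrienoic acids, differed by 0.23 (limma adjusted p = 0.131). Of the 3 P450 enzymes with other symbols, Cyp51, Tbxas1 and Ptgis, 0 passed (the largest difference was 0.17, for Cyp51), nor did any of 5 genes of arachidonic acid release and the other eicosanoid pathways (the largest, Ptgs2, 0.20).

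Several cell type lists held genes that passed, and they stand beside these values. All 8 endothelial markers were lower in labelled mutant arrays, Kdr and Cdh5 by log2 differences of -0.90 and -0.84, and the list mean was 9.98 to 10.09 there against 10.62 to 10.80. Of 8 fibroblast and mural cell markers 4 fell, Lum and Acta2 most among them (-1.04 and -0.70), with list means of 9.19 to 9.37 against 9.56 to 9.79. Of 12 proximal tubule markers 3 rose and 1 fell. Slc13a3, Slc22a8 and Slc4a4 differed by 0.55, 0.30 and -0.21, and the list means of the groups overlapped (12.76 to 12.97 against 12.55 to 12.78). Of 8 markers of other nephron segments 2, Calb1 (0.54) and Atp6v1b1 (0.33), rose, with list means of 11.62 to 11.77 against 11.37 to 11.49. With the replicate block 4 of the 8 passed as higher, Slc12a1 (0.25, limma adjusted p = 0.0456) and Slc12a3 (0.24, 0.0341) being added. No gene of the fat tissue list (5 genes, Adipoq with the largest difference, -0.43) or of the liver list passed. Of 6 transcripts enriched in male kidneys 1 passed, Slc22a30, which fell (-0.62), and of 2 measured ones enriched in female kidneys 0 did (Slc22a29, -0.49). In RNA of whole kidneys, fewer cells of a type and less RNA per cell cannot be told apart, and the part of these lists in the P450 differences was not tested.

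A further 7 probe sets named a P450 gene together with other genes and were not counted above. In a fit over all 35556 probe sets 0 of the 7 passed with limma. The largest differences were those of a pair that share Cyp3a41b, Cyp3a44 and Cyp3a41a (log2 differences -0.64 and -0.63, limma adjusted p = 0.189 and 0.155). The probe set of Cyp2a5 and Cyp2a4 read 11.27, 11.33, 10.71 and 10.52 in labelled mutant arrays against 11.10, 10.96, 10.04 and 10.35 (log2 difference 0.35, limma adjusted p = 0.545), and that of Cyp4a32, Cyp4a31 and Cyp4a10 differed by -0.05.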

How the data were processed

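The values were the authors' deposited log2 table of 35556 probe sets by 8 arrays. Of tools, limma is listed, with no version, per the submitters' processing notes, while the background correction, probe summary, normalization and build are not given in the sources used here. RNA was extracted with TRIzol and RNeasy and labelled with biotin, per the labels' protocols. Gene names came from the platform annotation (21789 probe sets naming 1 gene, 21701 matched to RefSeq's GRCm38.p6 gene table, 1621 naming several, 12146 unlisted). The probe set with the highest mean stood for each gene, and no value was filtered or renormalized.

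The group difference was the 1 factor of a linear model over all 8 arrays (limma 3.58.1, lmFit then eBayes, R 4.3.3). Its two-sided p-values were corrected over 19936 genes (Benjamini-Hochberg). The labels do not say which mice shared a litter, and p-values measure the spread between these samples. Deviations of same-numbered arrays correlated at 0.138, 0.153, 0.295 and 0.175, all over 0.1. Mutant array 2 also passed 0.1 with control array 1 (0.111, below its 0.153 with control array 2), so this cut alone does not set equal numbers apart. On that evidence of the data, and not of the labels, equal numbers were treated as possible pairs. The main test and its counts ignore this pairing. A fit with the replicate number as a block was run as an alternative. Its value appears beside each named gene or list whose calls change with it.

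The members and lists were chosen with earlier results of these data known. Named genes were drawn from every called P450 gene, all Cyp2j, Cyp2d, Cyp4a, Cyp2c, Cyp2e and Cyp27a members, the member with the highest mean of each other subfamily without a call, and from each list the 2 largest called changes or else the largest. Other named genes were chosen after their values were seen. Among them are Apoa1, Slc4a4, Slc12a1, Cyb5b, Alas1, Ppara, Ephx2, Cyp1a2, Ahrr, the neighbouring genes and uncalled Cyp4f genes. Alternatives were quantile normalization, median centring, the upper 60% of genes by mean, averaging the probe sets of each gene, a block on the replicate number, weights per array, a trended and robust eBayes, a threshold of 0.01, and leaving out arrays. The fit was tested on simulated data.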

Additional observations from a re-analysis of the deposited data

Results flagged for a closer look

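Among the 66 named P450 genes, 9 of 132 groups of 4 arrays held 1 array far from the others (a gap above the Dixon critical value for 4 samples). Chance gives about 1 in 20 groups. Cyp2j13 read 8.04 on mutant array 3, above 7.34 to 7.39 on the other mutant arrays. On mutant array 3 Cyp2c29 also read 6.25 (others 5.58 to 5.64) and Cyp2d13 6.47 (6.16 to 6.18). On mutant array 1 Cyp21a1 read 6.86 (6.55 to 6.59), Cyp2j11 12.25 (12.08 to 12.11) and Cyp2d22 10.83, below the others (11.22 to 11.29). Cyp2u1 read 8.36 on mutant array 4, below the others (8.53 to 8.55). On the control side, Cyp2c55 read 5.20 on array 4 (others 4.72 to 4.76) and Cyp2d37-ps 8.08 on array 2 (others 8.26 to 8.27).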

How the results depend on the processing

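At an adjusted p under 0.01 the limma count over all genes was 602 in place of 1442, and 2 P450 genes were lower in place of 4. At that threshold 4.71% of P450 genes passed, against 3.02% of all genes. Leaving out 1 array gave 902 to 1368 genes over all (917 without mutant array 2, 903 without control array 2, 902 without control array 3), 2 to 3 P450 genes higher and 3 to 4 lower. In these fits 5.88% to 8.24% of P450 genes passed, against 4.52% to 6.86% of all genes. Without mutant arrays 1 and 2, 962 genes passed over all (4.83%) and 5 P450 genes (5.88%), 4 as higher and 1, Cyp2j13, as lower. The median difference of the Cyp4f genes was then 0.04. Without mutant arrays 3 and 4 that median was 0.19, and 9 P450 genes passed (10.6%, against 7.83% of all genes). Over the upper 60% of genes by mean, where 31 P450 genes remained and medians rest on fewer genes, the medians were 0.73 for Cyp2c (1 gene, Cyp2c23), 0.01 for Cyp2d and 0.18 for Cyp4f. The replicate block gave 1657 calls over all genes (8.31%) and 8 P450 calls (9.41%). With the block Cyp27a1 (limma adjusted p = 0.0324) and Cyp2d22 (0.0284) passed and Cyp2u1 (0.0830) did not, and no other P450 call changed. No called P450 gene changed its direction in any alternative run. The cause of these changes was not tested. Values below the lower quartile of the arrays, where 32 of the 85 genes lie in both groups, limit what can be read from them.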
